A study of Xenopus laevis with 6 samples.

Results

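A group of 140 gene models, of the 35773 counted in whole *Xenopus laevis* embryos, stood far higher in the library called control 1 than in each of the other 5 libraries of the series. Counts were scaled to CPM, a model's counts relative to all counts of its library on a scale common to the 6 libraries, and the members were selected on these values: at least 5 CPM in control 1, and a CPM plus 0.5 more than 4 times that of every other library. They make up 0.391% of all models. Since control 1 against the other libraries is what chose them, that difference is described here and not tested.

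Poly(A) RNA of whole embryos was sequenced in 6 libraries, 2 from each group, and all 6 were labelled Nieuwkoop and Faber stage 32, a tailbud stage with forming eyes, muscle and pigment. The groups were embryos injected with a *kdm5c* morpholino oligonucleotide (*kdm5c* MO, replicates 1 and 2), embryos injected with a *kdm3a* morpholino (*kdm3a* MO, replicates 3 and 4), and control embryos (control 1 and control 2). KDM5C and KDM3A are histone demethylases, and morpholinos are antisense oligonucleotides. The *kdm5c* MO blocks translation, so the RNA level of its target checks nothing, and whether the controls were injected is not given in the labels. The labels put the injections at the two-cell stage. The study's methods instead put *kdm5c* MO injection at the one-cell stage, except in embryos used for in situ hybridization. The titles of both *kdm3a* MO libraries name a later month than the other 4, so month and condition cannot be told apart there. The second control is numbered differently in its title and its description. The design text calls the replicates biological, but no source ties a library to a clutch, so p-values measure only the spread between these libraries.

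Libraries held 12838245 to 20217436 counts, and 3 counts, the limit that a count of 0 allows, corresponded to 0.148 to 0.234 CPM. Between 89.7% and 95.04% of counts of 1 to 20 were even, and if a fragment gave 2 counts the limit was 6 counts, or 0.297 to 0.467 CPM. The trimmed-mean (TMM) scaling factor was 0.710 for *kdm5c* MO 1 and 1.02 to 1.16 for the other 5. Control 1 also stood apart outside the members, in markers of some differentiated tissues. In the gene lists used here, control 1 was the lowest of the 6 libraries in 44 of 62 muscle genes, 25 of 39 neuron genes, 24 of 41 endoderm, liver and pancreas genes, 12 of 24 eye and lens genes and 9 of 13 pigment cell genes, against 23.1% of all genes with a mean of at least 1 CPM. It was the lowest in 3 of 27 multiciliated cell genes, 7 of 31 pronephros genes and 8 of 23 larval epidermis genes, and the highest in 6 multiciliated cell, 11 pronephros and 7 larval epidermis genes. *dct.L*, a melanin synthesis enzyme, had 598 and 681 counts in *kdm5c* MO, 1344 and 475 in *kdm3a* MO, 0 in control 1 and 1154 in control 2. The lens crystallin *cryba1.S* had 370 and 242 counts in *kdm5c* MO, 528 and 52 in *kdm3a* MO, 0 in control 1 and 510 in control 2. *apob.L*, a lipoprotein component made in the liver, had 912 and 7354 counts in *kdm5c* MO, 11733 and 4398 in *kdm3a* MO, 0 in control 1 and 9440 in control 2. These 3 genes were chosen after their values were seen. Control 1 thus had no count of these 3 markers, all of which the other 5 libraries carried, although all 6 share the label of stage 32. Whether the stage of control 1 matches its label was not tested, and what every comparison with control measures depends on it. Any part of the stage in the members' levels was not tested either.

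Development of the frog embryo runs through waves of gene use. At gastrulation, the organizer secretes BMP antagonists, Wnt and nodal signals pattern the mesoderm and endoderm, and transcription factors of uncommitted cells are switched off as lineages form. Later, the tail bud keeps a pool of posterior progenitors, marked by caudal-type homeobox genes and Wnt signals, which feed the presomitic mesoderm where Notch and its targets time the segments. In *X. laevis*, an allotetraploid, most such genes exist as L and S copies (homeologs), which were counted apart. In whole embryos, fewer cells of a type and less RNA per cell cannot be told apart.

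The members' median level was 2.30 and 2.65 CPM in *kdm5c* MO 1 and 2, 2.05 and 3.53 CPM in *kdm3a* MO 3 and 4, 41.2 CPM in control 1 and 2.55 CPM in control 2. Only control 1 stood out, by construction, and control 2 sat among the morphants. Together the members took 0.114% and 0.109% of all counts in *kdm5c* MO, 0.0931% and 0.144% in *kdm3a* MO, 1.36% in control 1 and 0.101% in control 2. Their control 1 levels ran from 5.14 to 952 CPM. Applied to the other libraries in turn, the same rule found 12 genes for *kdm5c* MO 1, 3 for *kdm5c* MO 2, 49 for *kdm3a* MO 3, 1 for *kdm3a* MO 4 and 4 for control 2.

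**Figure D1:**
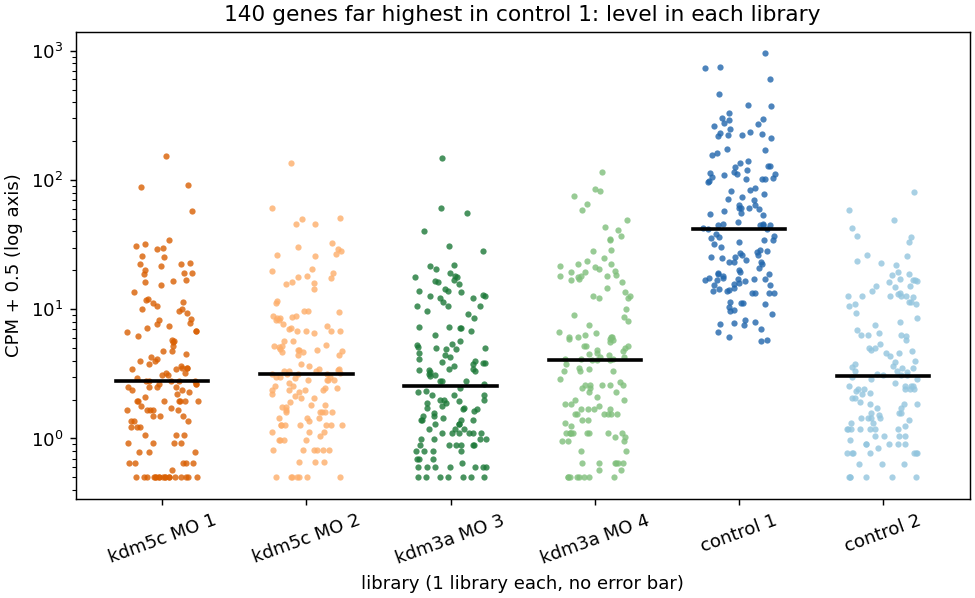
Level of each of the 140 members (points) in each library, as CPM plus 0.5 on a log axis, with black bars at the median. The control 1 points lie between 5.14 and 952 CPM, with a median of 41.2 CPM, and the medians of the other 5 libraries lie between 2.05 and 3.53 CPM.

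The smallest of a member's 5 ratios ran from 4.01 to 38.0 with a median of 6.22. It was above 8 in 41 members, above 10 in 29 and above 20 in 7. Just inside the limit of 4 were the model Xelaev18001114m at 4.01, *esr-5.S* at 4.05 and *iqgap2.L* at 4.05. Just outside were Xelaev18037263m, *loc101732106.S* and *syt8.L*, each at 3.98, so the edge of the group is a matter of small differences. A further 24 genes passed the ratio but not the 5 CPM.

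A first set of members encode transcription factors of the early embryo. *pou5f3.1.L*, a POU factor of uncommitted cells, had 1.22 and 0.312 CPM in *kdm5c* MO, 0.791 and 0.601 CPM in *kdm3a* MO, 15.5 CPM in control 1 and 0.408 CPM in control 2. *foxh1.L*, the forkhead partner of Smad proteins in nodal signalling, had 0.287 and 0 CPM in *kdm5c* MO, 0.198 and 0.300 CPM in *kdm3a* MO, 19.0 CPM in control 1 and 0 CPM in control 2. Outside control 1, *foxh1.L* therefore had at most 4 counts in any library, and its smallest ratio, 24.3, was among the 10 highest. The *ventx* genes are homeobox factors of the ventral side that act downstream of BMP. *ventx1.2.S* had 1.43 and 0.312 CPM in *kdm5c* MO, 0.396 and 1.05 CPM in *kdm3a* MO, 13.6 CPM in control 1 and 0.272 CPM in control 2. *ventx1.1.S* had 1.43 and 0.156 CPM in *kdm5c* MO, 0.198 and 1.201 CPM in *kdm3a* MO, 8.76 CPM in control 1 and 0.136 CPM in control 2. In both, *kdm5c* MO 1 and *kdm3a* MO 4 were above the other 3 low libraries.

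*sox17a* and *sox17b* encode HMG-box factors that specify endoderm. *sox17a.L* was even across the low libraries, with 3.59 and 2.34 CPM in *kdm5c* MO, 3.96 and 3.53 CPM in *kdm3a* MO and 3.40 CPM in control 2, while control 1 had 22.6 CPM. *sox17b.1.S* was not, with 3.16 and 1.09 CPM in *kdm5c* MO, 0.495 and 0 CPM in *kdm3a* MO, 16.6 CPM in control 1 and 0.679 CPM in control 2. *foxa4.L*, a forkhead factor of the organizer, notochord and floor plate, had 1.15 and 4.67 CPM in *kdm5c* MO, 1.38 and 4.73 CPM in *kdm3a* MO, 28.1 CPM in control 1 and 4.55 CPM in control 2. Its low libraries thus split within both MO groups, and the split did not follow the injected morpholino.

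Among secreted signals, 3 models of *chrd* were members. Chordin is the organizer's BMP antagonist. *chrd.S* had 9.47 and 4.67 CPM in *kdm5c* MO, 8.11 and 18.8 CPM in *kdm3a* MO, 111 CPM in control 1 and 5.84 CPM in control 2. *chrd.1.L* had 3.44 and 1.71 CPM in *kdm5c* MO, 5.84 and 4.28 CPM in *kdm3a* MO, 44.1 CPM in control 1 and 1.90 CPM in control 2. How reads were divided among near-identical cDNAs is not stated, so the split between *chrd.1.L* and *chrd.L2* is uncertain. Both copies of *wnt8a*, a Wnt ligand of the ventrolateral mesoderm, were members. *wnt8a.L* had 3.299 and 1.64 CPM in *kdm5c* MO, 1.48 and 3.60 CPM in *kdm3a* MO, 16.9 CPM in control 1 and 0.544 CPM in control 2. *wnt8a.S* had 2.44 and 2.49 CPM in *kdm5c* MO, 0.791 and 2.102 CPM in *kdm3a* MO, 18.1 CPM in control 1 and 0.408 CPM in control 2. In both copies control 2 was the lowest of all 6 libraries, so the 2 controls were at opposite ends. *wnt5b.S*, another Wnt ligand, had 5.16 and 4.13 CPM in *kdm5c* MO, 3.46 and 7.06 CPM in *kdm3a* MO, 44.3 CPM in control 1 and 4.48 CPM in control 2. *angpt4.S*, an angiopoietin, had 9.11 and 2.03 CPM in *kdm5c* MO, 0.396 and 1.28 CPM in *kdm3a* MO, 103 CPM in control 1 and 1.09 CPM in control 2. *kdm5c* MO 1 was well above the other low libraries for *angpt4.S*.

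A further set belongs to the tail bud and the forming segments. *cdx4.L*, a caudal-type homeobox factor of posterior identity, had 18.4 and 6.85 CPM in *kdm5c* MO, 12.22 and 17.6 CPM in *kdm3a* MO, 119 CPM in control 1 and 6.39 CPM in control 2. *cdx4.S* had 7.82 and 2.73 CPM in *kdm5c* MO, 3.61 and 6.16 CPM in *kdm3a* MO, 70.3 CPM in control 1 and 4.08 CPM in control 2. The copies agreed in placing *kdm5c* MO 1 and *kdm3a* MO 4 next below control 1. The same pair of libraries followed control 1 in *sp5l.S*, which encodes an Sp-family zinc finger factor and had 7.89 and 3.12 CPM in *kdm5c* MO, 4.85 and 8.48 CPM in *kdm3a* MO, 54.8 CPM in control 1 and 4.28 CPM in control 2. *cdx1.S*, also of the caudal type, had 2.01 and 5.22 CPM in *kdm5c* MO, 1.29 and 5.85 CPM in *kdm3a* MO, 33.8 CPM in control 1 and 2.65 CPM in control 2, so that *kdm3a* MO 4 and *kdm5c* MO 2 were next below control 1. *pcdh8.2.L*, a protocadherin, had 30.6 and 29.6 CPM in *kdm5c* MO, 19.9 and 48.1 CPM in *kdm3a* MO, 224 CPM in control 1 and 25.7 CPM in control 2, and in its S copy *kdm3a* MO 4 was again next below control 1. *ripply2.S*, a repressor adaptor that acts at the forming somite boundary, had 3.44 and 4.21 CPM in *kdm5c* MO, 2.67 and 5.104 CPM in *kdm3a* MO, 29.6 CPM in control 1 and 2.99 CPM in control 2. In *ripply2.S* the 5 low libraries lay close together. *egr2.L*, the hindbrain and neural crest zinc finger factor, was similarly even, with 2.73 and 2.18 CPM in *kdm5c* MO, 2.87 and 4.05 CPM in *kdm3a* MO, 21.8 CPM in control 1 and 2.58 CPM in control 2.

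**Figure D2:**
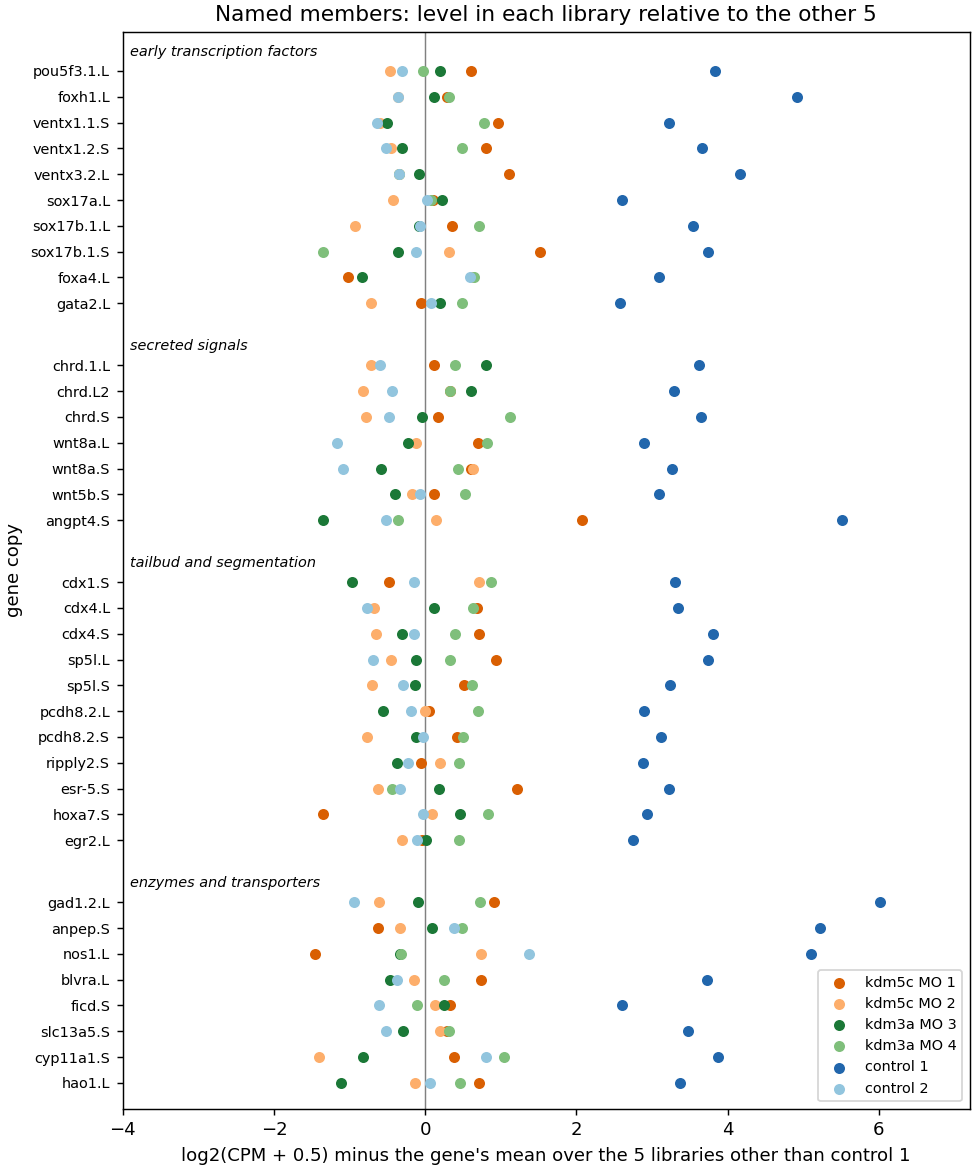
Named members by role, one gene copy a line, with a point for each library: log2 of CPM plus 0.5, minus the gene's mean over the 5 libraries other than control 1. The control 1 points lie to the right of all others in every line, as the rule requires, and control 2 is the leftmost point for *wnt8a.L*, with 0.544 CPM.

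Another set of members encode enzymes and transporters. *gad1.2.L*, by its symbol a glutamate decarboxylase, which makes GABA, had 2.30 and 0.467 CPM in *kdm5c* MO, 0.890 and 1.95 CPM in *kdm3a* MO, 95.3 CPM in control 1 and 0.272 CPM in control 2. It was the only member among 39 neuron genes, of which 25 were lowest in control 1. *anpep.S*, aminopeptidase N, had 0.287 and 0.467 CPM in *kdm5c* MO, 0.791 and 1.201 CPM in *kdm3a* MO, 45.1 CPM in control 1 and 1.09 CPM in control 2. *nos1.L*, neuronal nitric oxide synthase, had 0 and 1.79 CPM in *kdm5c* MO, 0.594 and 0.601 CPM in *kdm3a* MO, 46.6 CPM in control 1 and 3.06 CPM in control 2. Here control 2 was the second highest library.

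*blvra.L*, biliverdin reductase, had 91.2 and 49.5 CPM in *kdm5c* MO, 39.5 and 64.9 CPM in *kdm3a* MO, 729 CPM in control 1 and 42.3 CPM in control 2. *ficd.S*, which modifies the endoplasmic reticulum chaperone BiP, had 154 and 134 CPM in *kdm5c* MO, 146 and 114 CPM in *kdm3a* MO, 745 CPM in control 1 and 80.0 CPM in control 2. Both genes had at least 39.5 CPM in all 6 libraries. *cyp11a1.S*, the enzyme of the first step of steroid synthesis, had 10.8 and 2.80 CPM in *kdm5c* MO, 4.40 and 17.4 CPM in *kdm3a* MO, 128 CPM in control 1 and 14.7 CPM in control 2. The citrate transporter *slc13a5.S* had 18.6 and 17.5 CPM in *kdm5c* MO, 12.3 and 19.1 CPM in *kdm3a* MO, 173 CPM in control 1 and 10.4 CPM in control 2. Other members of this kind were *hao1.L*, *rpe65.S*, *xdh.S*, *slc30a8.L*, *slc7a11.S*, *elovl7.L*, *ca7.L*, *nt5e.S* and *fut2.L*.

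Members of matrix and cytoskeleton included both copies of *emilin3*. *emilin3.L*, an extracellular matrix glycoprotein, had 31.2 and 15.4 CPM in *kdm5c* MO, 30.2 and 57.9 CPM in *kdm3a* MO, 276 CPM in control 1 and 25.2 CPM in control 2. *eppk1.L*, a plakin of keratin networks, had 87.2 and 50.2 CPM in *kdm5c* MO, 21.4 and 85.0 CPM in *kdm3a* MO, 373 CPM in control 1 and 48.2 CPM in control 2. *kdm3a* MO 3 was the lowest library for *eppk1.L*, below its own replicate. The single proliferation gene was *ccna1.S*, an embryonic A-type cyclin, with 0.861 and 0.935 CPM in *kdm5c* MO, 0.989 and 0.150 CPM in *kdm3a* MO, 7.12 CPM in control 1 and 0.679 CPM in control 2.

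The member of highest CPM in control 1 was *post.S*, with 21.1 and 25.2 CPM in *kdm5c* MO, 17.5 and 81.5 CPM in *kdm3a* MO, 952 CPM in control 1 and 32.4 CPM in control 2. Identifier-only models made up 53 of the 140 members, or 37.9%, against 8.93% of the 16591 genes with at least 5 CPM in control 1. Among the 87 with a symbol, 18 carried only a locus number or a *Xenopus tropicalis* model name. The highest ratio of all, 38.0, belonged to Xelaev18043771m, with 0 CPM in both *kdm5c* MO libraries, 0 and 0.601 CPM in *kdm3a* MO, 41.4 CPM in control 1 and 0 CPM in control 2. Xelaev18035347m had 0 counts in all 4 MO libraries, 10.8 CPM in control 1 and 0 counts in control 2. Named only by locus or model, *loc100492825.L*, *loc100487159-like.L* and *Xetrov90030974m.L* had smallest ratios of 23.9, 18.9 and 18.0. Xelaev18021890m, among the 10 members of highest CPM in control 1, had 11.4 and 4.596 CPM in *kdm5c* MO, 0.890 and 42.5 CPM in *kdm3a* MO, 599 CPM in control 1 and 5.77 CPM in control 2. Some members had neighbouring identifiers, and 16 pairs of members had identifiers at most 5 apart, involving 30 members. Of these, 9 pairs were consecutive. In the RefSeq gene order (assembly Xenopus_laevis_v10.1), where 58 members matched by symbol, *sox17a.L* lay next to *sox17b.1.L*, *ventx1.2.S* was 3 genes from *ventx1.1.S* and *emilin3.L* was 4 genes from *tgif2.L*.

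The L and S copies offered values that the rule did not use for the member itself. The other copy was in the table for 64 members, and 16 of these formed 8 pairs with both copies as members, among them *cdx4*, *sp5l*, *wnt8a*, *pcdh8.2*, *sox17b.1*, *emilin3* and *post*. Of the other 48, control 1 was the highest library for the non-member copy in 34, against 23.4% of genes with a mean of at least 1 CPM, and more than 2 times every other library in 23. The 48 copies were not held to that mean, and 6 of them were under 1 CPM in every library. The median log2 ratio of control 1 to the mean of the others was 1.62 for these 48 copies and -0.14 for all genes past the low-count filter. Homeologs are related in sequence, and shared reads could give part of this likeness, which was not tested. Other pairs of copies differed. *anpep.L* had 1.43 and 0.779 CPM in *kdm5c* MO, 6.08 and 8.26 CPM in *kdm3a* MO, 0.137 CPM in control 1 and 7.202 CPM in control 2, so control 1 was lowest in this copy and highest in *anpep.S*. *gad1.2.S* had 10.04 and 10.7 CPM in *kdm5c* MO, 9.74 and 4.80 CPM in *kdm3a* MO, 13.97 CPM in control 1 and 8.76 CPM in control 2, without the large excess of *gad1.2.L*. *ficd.L* lay between 25.6 and 39.2 CPM in all 6 libraries.

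**Figure D3:**
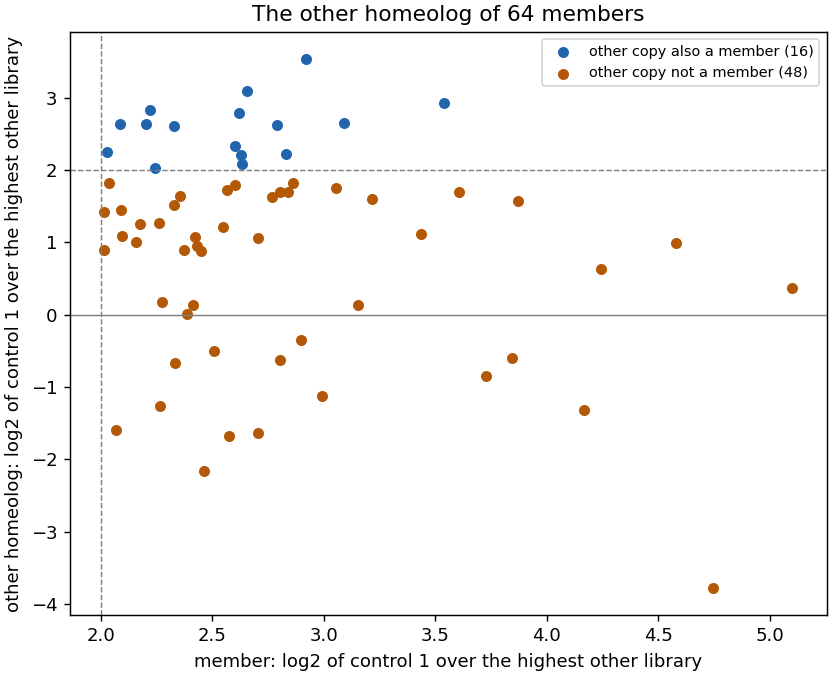
Log2 of control 1 over the highest other library for 64 members (x axis) and for their other homeolog (y axis), with 0.5 CPM added to each level. Dashed lines mark the limit of the rule, the 16 blue points are members whose other copy was also a member, and the 48 orange points reach from *anpep.L* at the bottom to copies just under the limit.

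Of the 21 gene lists, which held 23 members in all, the gastrula and the tailbud lists held the most. The gastrula mesendoderm and organizer list had 12 members among 42 measured gene copies, or 28.6%, against 0.564% of all 24842 genes with a mean of at least 1 CPM. Control 1 was the highest library in 18 of its 30 copies that were not members, against 23.0% of all such genes, and the lowest in 4 of the 42. The tailbud, presomitic mesoderm and segmentation list had 10 members among 59, or 16.9%. Control 1 was the highest in 41 of its 49 other copies and the lowest in 1. The lists overlap: both copies of *wnt8a* are on the gastrula and the tailbud list and were counted in each. Brachyury is on both as well. On the gastrula list, the copies that were not members went both ways. *t.L*, brachyury, had 84 and 34 counts in *kdm5c* MO, 90 and 78 in *kdm3a* MO, 284 in control 1 and 42 in control 2, while *eomes.L*, a T-box factor of mesendoderm, had 12 and 42 counts in *kdm5c* MO, 74 and 26 in *kdm3a* MO, 0 in control 1 and 85 in control 2. Both were chosen after their values were seen. The neural plate and neural crest list, the neuron list and the proliferation list had 1 member each, and the other 16 lists had none. Among copies that were not members, control 1 was also the highest in 34 of 58 for neural plate and neural crest and 33 of 61 for proliferation. It was the highest in 9 of 21 for germ plasm, oocyte and egg, and in 3 of 38 for neurons. Without being members, 7 of 8 cement gland and hatching gland genes were highest in control 1. Members included, control 1 was highest in 30 gastrula and 51 tailbud copies, and in 30 and 47 with TMM scaling. Since the rule used control 1, and the lists were chosen with earlier results of these data known, these counts are a description.

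**Figure D4:**
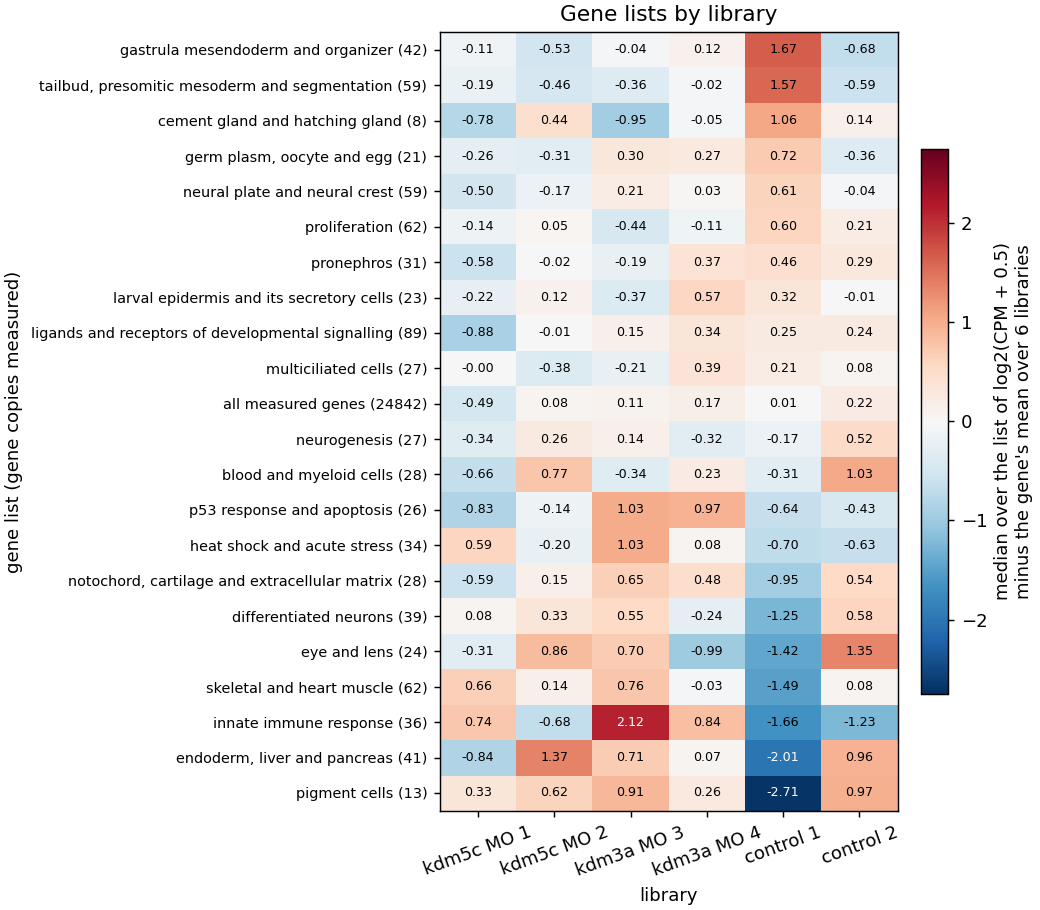
Median over each gene list of log2 CPM plus 0.5, minus the gene's mean over the 6 libraries, in each library. Control 1 is highest for the gastrula list (1.67) and the tailbud list (1.57), and lowest for pigment cells (-2.71) and for endoderm, liver and pancreas (-2.01).

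Among the 5 low libraries the members still varied. Their spread had a median of 1.57 on the log2 scale, against 1.37 for genes with at least 5 CPM in control 1. Those genes were not matched to the members' low levels in these libraries, so the medians are not like for like. In 48 members the spread was more than 4-fold, and no share of all genes was computed for this limit. The second highest library was *kdm3a* MO 4 in 50 members, *kdm5c* MO 1 in 36, *kdm5c* MO 2 in 25, control 2 in 17 and *kdm3a* MO 3 in 12. This second library set a member's smallest ratio and was taken in CPM by library size. The order of libraries in this paragraph, and for the single members above, was not repeated with TMM scaling. There *kdm5c* MO 1 had a factor of 0.710. As shares of members against shares of all genes past the filter, *kdm3a* MO 4 was highest of the 5 in 35.7% against 22.9%, *kdm5c* MO 1 in 25.7% against 12.9% and *kdm5c* MO 2 in 17.9% against 13.1%. The shares were 12.1% against 25.5% for control 2 and 8.57% against 25.5% for *kdm3a* MO 3. Control 2 fell within the range of the 4 MO libraries in 104 members (74.3%, against 66.3% of genes). It was above that range in 17 (12.1%, against 25.5%) and below it in 19 (13.6%, against 8.18%). Counts of 0 were found for 18 and 7 members in *kdm5c* MO, 7 and 8 in *kdm3a* MO, 0 in control 1 and 6 in control 2. No share of all genes at 0 counts was computed. With ties counted for it, *kdm5c* MO 1 was the lowest of the 5 in 35% of members, against 52.5% of genes past the filter.

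The comparison of *kdm3a* MO with *kdm5c* MO holds no control library and is the one least bound by the rule, although the rule kept all 4 libraries low. In edgeR's exact test, 114 members were tested and 26 were left out by the low-count filter. None was called at a false discovery rate (FDR) under 0.01 and a change over 4-fold, where 0.0498% of the 26092 genes tested were called. At an unadjusted p under 0.05 there were 3 members, all lower in *kdm3a* MO, against 4.42% of genes tested, and DESeq2 also called 0. Over all genes tested, 808 were lower and 346 higher at that limit, so most of those genes were lower too. With library size only, 1 member was lower and 1 higher. The 3 were *angpt4.S* and *sox17b.1.S*, whose levels are given above, and Xelaev18036538m. *angpt4.S* had a log2 fold change of -3.28 (edgeR's exact test, adjusted p = 0.724) and was lower in both *kdm3a* MO libraries than in both *kdm5c* MO libraries. *sox17b.1.S* had a log2 fold change of -3.44 (edgeR's exact test, adjusted p = 1) and its *kdm3a* MO libraries were likewise both below. Its L copy, also a member, had 10 and 0 counts in *kdm5c* MO and 8 and 14 in *kdm3a* MO, and did not share this order. Whether reads were divided unevenly between the copies was not tested. With TMM-scaled CPM, both *kdm3a* MO libraries were above both *kdm5c* MO libraries in 9 of the 140 members, against 18.1% of genes past the filter. Both were below in 16 members, against 15.9% of genes, so the members' share was the smaller in each direction. Of the 140 members, 128 passed that filter, which was taken over all 6 libraries. The median log2 difference over all members was -0.33, against 0.036 over the genes past the filter. By library size alone, which left the median of all genes at 0.30, it was -0.089. The rule capped these 4 libraries for the members and not for the other genes, so these medians are a description.

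**Figure D5:**
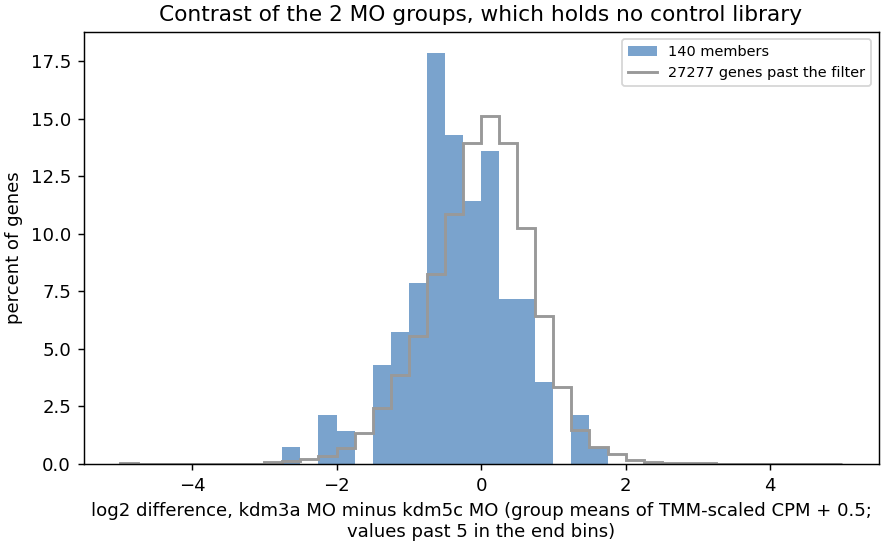
Distribution of the log2 difference between the means of *kdm3a* MO and *kdm5c* MO (TMM-scaled CPM plus 0.5) for the 140 members (filled bars) and the 27277 genes past the filter (grey line), in percent of genes. The members' median lies at -0.33 and that of all genes at 0.036.

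Both comparisons with control include control 1, and share both control libraries. Control 1's excess chose the members, so every member entered these comparisons with a higher control mean, and the counts below are a description from which nothing is read. For *kdm5c* MO against control, all 127 members that passed the low-count filter were lower, with 0 past both limits (0% of genes tested) and 60 at an unadjusted p under 0.05 in edgeR's exact test (0.987% of genes tested). For *kdm3a* MO against control, all 124 were lower, with 3 past both limits (0.0151% of genes tested) and 91 at an unadjusted p under 0.05 (1.31% of genes tested). Of the 3, Xelaev18038602m had 14 and 7 counts in *kdm3a* MO and 1192 and 77 in control, and Xelaev18024762m had 58 and 72 counts in *kdm3a* MO and 3453 and 240 in control. The third, Xelaev18029200m, had 0 counts in both *kdm3a* MO libraries and 246 and 14 in control. In CPM, control 2 was also above both *kdm3a* MO libraries for all 3, and *kdm5c* MO 2 was above control 2. The other replicate, *kdm5c* MO 1, was below both *kdm3a* MO libraries for Xelaev18038602m (2 counts) and Xelaev18024762m (10 counts). It had 0 counts for Xelaev18029200m. None of the 3 was called in edgeR's quasi-likelihood test, or when the exact test used a trended dispersion, an alternative added after the results were seen.

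Without control 1, 0 members were called in either comparison with control. Those fits had 1 control library, so their p-values are not given here. DESeq2 was not run without control 1. Leaving out either *kdm3a* MO library also brought the 3 calls to 0. Without control 2, the comparison is the one that chose the members, and its calls follow from the rule. Against control 2 alone, the members' median log2 difference was 0.31 in *kdm5c* MO and 0.23 in *kdm3a* MO after TMM scaling, where all genes past the filter had -0.012 and 0.030. By library size alone the members' medians were 0.0026 in *kdm5c* MO and 0.15 in *kdm3a* MO, where those genes had -0.38 and -0.073. The rule capped every library compared here for the members and not for the other genes. Each MO value was also a group mean set against a single library, so these medians are a description.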

How the data were processed

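Per the study's methods, the authors made poly(A) libraries and mapped the reads with BWA (0.7.10 in the submitters' processing notes, a later version in the methods) to cDNA sequences of the *X. laevis* genome project. The deposited values are raw counts per gene model, not normalized, with L and S copies apart. How pairs and reads matching several cDNAs were counted is not given in the sources used here.

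CPM used the column totals. Genes were filtered with filterByExpr (128 of 140 members and 27277 genes passed over 6 libraries), TMM-normalized and tested with edgeR 4.0.16 in R 4.3.3 (exact test) using common and tagwise dispersions, Benjamini-Hochberg adjustment over all genes tested, an FDR below 0.01 and a change over 4-fold. Each comparison used the 4 libraries of its groups. The exact test was tried on simulated data with less spread between libraries than these data. That trial does not show how many real changes would be found here. Alternatives were DESeq2 1.42.0, the quasi-likelihood test, other scalings, filters and limits, and each library left out. A trended dispersion (estimateDisp) was added after the results were seen, and the calls of both estimates are given. The members and lists were chosen with earlier results of these data known. Genes named are members on a list, the 10 of highest ratio, the 10 of highest level, homeolog pairs and those nearest the limit, plus others picked after their values were seen. Gene names come from the counts, no sequence was used, and positions served only for the RefSeq gene order. Counting limits cover counting error only.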

Additional observations from a re-analysis of the deposited data

How the results depend on the processing

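The number of members was 249 with a ratio limit of 3 and 41 with a limit of 8, 120 to 164 under the other scalings, pseudocounts, CPM minimums and summed copies, and 145 to 187 with one library other than control 1 left out. For *kdm3a* MO against *kdm5c* MO, 0 members were called under every alternative run. For *kdm5c* MO against control, 0 were called except without control 2, so the leave-one-out range was 0 to 38. For *kdm3a* MO against control, where 3 were called, the count was 1 with no filter, 1 with at least 10 counts in every library, 0 in the quasi-likelihood test, 5 with DESeq2, 0 with all 6 libraries in the fit, 0 with the trended dispersion that was added after the results were seen, 6 at an FDR under 0.05 with no fold limit, and 0 to 79 with one library left out. The counts of 38 and 79, without control 2, follow from the rule, which used control 1 against those libraries, and a lone control was assumed to vary like the MO group. For the other changes the cause was not tested. At an FDR under 0.05 with no fold limit, 8 of the 26491 genes tested were lower in *kdm3a* MO and 58 higher. For the other alternatives no share of all genes called was computed, so nothing is read from the counts of members. Of 55 values of single members under alternatives, 36 kept direction and side of the threshold, 19 kept direction only and 0 reversed. In the titles, replicate numbers 1 and 2 are shared by *kdm5c* MO and control only. The description of control 2 instead gives it number 3, which a *kdm3a* MO library also carries. By the title numbers, deviations in *kdm5c* MO and control correlated over 26152 genes (Pearson 0.25, Spearman 0.21, across genes, which are not independent). With 2 pairs this does not pair the samples. With a replicate block in the quasi-likelihood test, 0 of the 127 members tested were called.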
